A study of Mus musculus with 50 samples.

Results

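The 50 liver libraries of the cross were put in order by their normalized value of Cyp2d9, a male-biased cytochrome P450 that hydroxylates testosterone, and the 16 highest were compared with the 16 lowest, so that 32 of the 50 libraries entered the comparison. The libraries were chosen by the measured values of Cyp2d9, which is therefore described without a test, and every other gene with a mean value of at least 1 was compared on the scale log2(value + 0.5), with differences taken as highest minus lowest. The mice were males of 1 cross in which segments of chromosomes 4 and 6 came from A/J or C57BL/6J and all other chromosomes came from C57BL/6J. The labels call them adult F2 mice, whereas the study's methods describe N2 offspring (a second generation of the backcross) taken at 5 weeks of age after an overnight fast, with RNA from the caudate lobe of the liver. No treatment, genotype class or other group was given by the labels, so both sets of libraries share the cross, sex and fasting as described. The paper measured traits in mice of both sexes and does not state the sex of the mice that were sequenced. The sex of single mice was not tested here by their gene values. The alleles on chromosomes 4 and 6 may differ between the sets, and those of single mice were not analysed here. Library titles carried a library number from 1 to 59 and an animal number, and these serve below as names and as library measures compared between the sets; the labels do not say what their order stands for.

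In the mouse liver many genes differ in level between males and females. Growth hormone reaches the male liver in pulses with quiet intervals and the female liver nearly continuously, and the transcription factor STAT5b, which is activated by each pulse, holds male-biased genes on and female-biased genes off. Before puberty the livers of both sexes resemble each other more closely, and male-biased genes such as Cyp2d9, the major urinary protein (Mup) genes and Slco1a1 rise as the adult pulses are established.

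Cyp2d9 lay at chr15:82433437-82456845 on the plus strand of GRCm38 in the GENCODE annotation. Its normalized value, a read count scaled to a common library size, was lowest at 1787, had a median of 1965 and was highest at 2168 in the 16 highest libraries. In the 16 lowest libraries these values were 349, 1039.5 and 1430. The values had no gap at either border, since the last library of the highest set stood at 1787.1 and the next at 1786.3, and the first library of the lowest set stood at 1430.4 and its neighbour at 1450.0. Within the lowest set 6 libraries lay between 1347 and 1430, and the other 10 spread from 349 to 1064. The library numbered 24 had the lowest value of all. Of the 31-base stretches of the annotated Cyp2d9 transcripts, 34.8% also occur in other genes, mainly Cyp2d12, Cyp2d11 and Cyp2d10, so reads of these genes cannot be fully told apart.

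The promoter of Cyp2d9 is shown with those of Slco1b2, a higher gene, and Slc22a26, a lower gene, because the latter pair were among the named genes whose promoters held the palindrome TTCNNNGAA, the core recognized by STAT5 proteins. The sequences run from 250 bases before to 50 bases after the gene start in RefSeq on GRCm38.p6, which for Cyp2d9 lies inside the GENCODE span given above. Capitals mark the palindrome, of which the outer TTC and GAA read alike on both strands and the middle bases need not, and no capitals are present for Cyp2d9.
Cyp2d9, chr15:82452127-82452426, plus strand: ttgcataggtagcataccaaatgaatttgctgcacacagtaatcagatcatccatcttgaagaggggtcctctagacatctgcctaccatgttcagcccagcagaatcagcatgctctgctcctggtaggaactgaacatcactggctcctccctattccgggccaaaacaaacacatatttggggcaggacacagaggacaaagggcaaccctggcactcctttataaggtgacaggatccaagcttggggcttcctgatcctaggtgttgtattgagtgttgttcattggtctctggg
Slco1b2, chr6:141629268-141629567, plus strand: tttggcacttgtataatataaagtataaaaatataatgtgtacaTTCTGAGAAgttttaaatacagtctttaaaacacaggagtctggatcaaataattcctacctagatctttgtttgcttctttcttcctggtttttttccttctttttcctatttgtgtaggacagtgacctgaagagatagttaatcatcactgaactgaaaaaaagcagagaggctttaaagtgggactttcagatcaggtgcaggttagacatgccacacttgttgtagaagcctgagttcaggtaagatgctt
Slc22a26, chr19:7802618-7802917, minus strand: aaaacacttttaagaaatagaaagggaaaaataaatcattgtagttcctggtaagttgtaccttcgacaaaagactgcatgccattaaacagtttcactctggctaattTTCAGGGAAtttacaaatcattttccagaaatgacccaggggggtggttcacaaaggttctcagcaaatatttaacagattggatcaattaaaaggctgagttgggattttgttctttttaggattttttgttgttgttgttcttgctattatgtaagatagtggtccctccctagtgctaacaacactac
The palindrome started 206 bases before the gene start in Slco1b2 and 141 bases before it in Slc22a26. It was found in 8.30% of all 32851 promoters, in 6.80% of those of genes tested, in 7.11% of those of genes higher in the highest Cyp2d9 libraries and in 6.91% of those of genes lower in them. By list it was present in 4 of 16 promoters of the tested male-higher genes (25%), in 3 of 28 of the female-higher genes (10.71%) and in 0 of 13 of the Mup genes. Counted by gene, it was present in 3 of 14 male-higher genes (21.43%) and 3 of 19 female-higher genes (15.79%), against 8.28% of genes tested. These shares are descriptions with no test.

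Of 11430 genes tested, 1358 (11.9%) differed between the 16 highest and the 16 lowest Cyp2d9 libraries (limma, Benjamini-Hochberg adjusted p under 0.05). In the highest libraries 676 of them (5.91% of genes tested) were higher and 682 (5.97%) were lower, and the median difference over all genes was 0.0025 on the log2 scale. Genes of male liver, the Mup genes above all, lay at the high end, and genes of female liver lay at the low end. The groups did not overlap for 3 higher genes (0.0262% of genes tested), which were Cyp7b1, Mup1 and Sult2a8, and for 0 lower genes. edgeR's quasi-likelihood test on the whole reads called 1396 (12.2%), 665 higher (5.82%) and 731 lower (6.4%). The balance of directions moved with the scaling, since 49.78% of the called genes were higher as deposited and 34.84% after each column was set to the same sum over genes. Of the 90 called genes chosen by the naming rule, 28 were not called with animal number in the model and 57 were not called with the share of values held by the 10 highest genes, among them Ugt2b1 (adjusted p = 0.0657, limma), Hsd3b5 (0.0686), Cyp17a1 (0.0518) and Cyp2b9 (0.125).

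**Figure D1:**
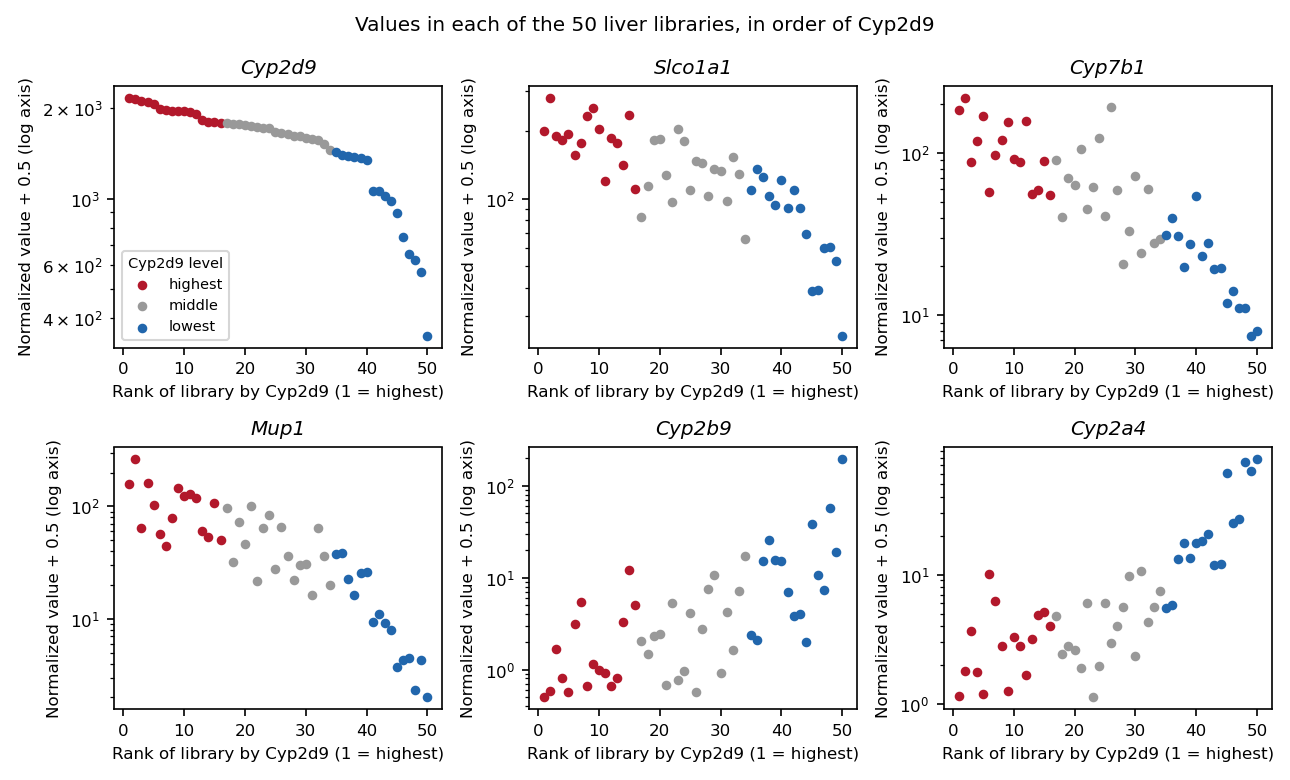
Normalized value plus 0.5 (log axis) of 6 genes in each of the 50 libraries, ordered along the horizontal axis by Cyp2d9 from the highest (rank 1) to the lowest (rank 50), each point 1 library colored by its set. Cyp2d9 falls gradually over ranks 1 to 40 and steeply after that, Slco1a1, Cyp7b1 and Mup1 fall with it, and Cyp2b9 and Cyp2a4 rise to their highest values in the lowest library.

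The male-higher list held 23 genes, of which 22 were in the table and 21 were tested. Of these 17 were higher in the highest Cyp2d9 libraries, 0 were lower, 4 did not pass the test, and all 21 had a positive difference. The median difference of the list was 1.19 (log2), against 0.0025 over all genes tested, of which 5.91% were higher and 5.97% lower.

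Slco1a1 (chr6:141907282-141946962), a transporter that takes organic anions into hepatocytes, had a lowest, median and highest value of 109.8, 187 and 280.4 in the highest libraries and 24.01, 90.3 and 136 in the lowest. 14 of the 16 highest libraries lay above all of the lowest, so the sets overlapped in a few libraries. The log2 difference was 1.30 ± 0.19 (SE; adjusted p = 2.17e-05, limma). Slco1a1 lies on chromosome 6, which segregated in the cross, and the alleles that single mice carried there were not analysed here. Between 140 and 160 Mb of that chromosome 25.6% of genes were called, against 11.9% of all genes tested. Ugt2b1 (chr5:86916638-86926530), which joins glucuronic acid to steroids and drugs, had values of 319.5, 476 and 681 in the highest libraries and 119, 249 and 444 in the lowest. In 9 of the 16 highest libraries Ugt2b1 exceeded every one of the lowest, and the difference was 0.84 ± 0.15 (adjusted p = 0.000283, limma).

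Steroid and lipid enzymes had the largest differences of the list. For Cyp7b1 (chr3:18071950-18243338), the hydroxylase of oxysterols and steroids, the lowest, median and highest values were 54.9, 94.4 and 218.2 in the highest libraries and 6.97, 19.2 and 53.7 in the lowest. The sets did not overlap, and the difference was 2.42 ± 0.25 (adjusted p = 1.73e-07, limma). Elovl3, an elongase of very long fatty acids, reached 49.6, 131 and 254.5 in the highest libraries and 3.35, 26.3 and 76.9 in the lowest, with 1 of the 16 highest libraries inside the range of the lowest. Its difference was 2.48 ± 0.31 (adjusted p = 2.35e-06, limma). Hsd3b5, a steroid dehydrogenase of male liver, stood at 4.28, 16.4 and 46.4 against 0.459, 3.42 and 13.9 and differed by 1.96 ± 0.33 (adjusted p = 0.00016), with 10 of the highest libraries above the whole range of the lowest. Selenbp2, a selenium-binding protein, differed by 2.01 ± 0.26 (adjusted p = 3.1e-06), from a median of 36.3 to one of 143.

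The arachidonic acid hydroxylases Cyp4a12a and Cyp4a12b were higher by 1.34 and 1.36, and the complement genes Susd4 and C6 by 1.45 and 1.33. Gstp1, a glutathione transferase, rose from a median of 500.5 to 998, a difference of 1.03. Ugt2b38 differed by 1.19, the superoxide-generating oxidase Nox4 by 1.06, the proteoglycan gene Cspg5 by 1.02, the G protein subunit Gna14 by 0.55 and Serpina1e, an alpha-1-antitrypsin, by 0.47. The adjusted p of these 10 genes lay between 5.54e-06 (Susd4) and 0.02 (Serpina1e; limma). Of the 4 that did not pass, the receptor Egfr had a difference of 0.38 ± 0.13 (adjusted p = 0.0534), Keg1 of 0.41 ± 0.15 (adjusted p = 0.073), the repressor Bcl6 of 0.72 ± 0.36 (adjusted p = 0.19) and Cyp2u1 of 0.10 ± 0.092 (adjusted p = 0.512). Several of these genes have close copies: 62.2% of the 31-base stretches of Cyp4a12a, 59.3% of Selenbp2, 54.2% of Serpina1e, 52.9% of Ugt2b38, 38.5% of Gstp1 and 34.1% of Hsd3b5 occur in another gene, so the split of reads between copies is uncertain.

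Of 37 female-higher genes listed, 32 were in the table and 26 reached the minimum for a test. In the highest Cyp2d9 libraries 15 of them were lower, 0 were higher and 11 did not pass, 23 of the 26 differences were negative, and the median was -0.67 (log2). Of all genes tested, 5.97% were lower. The value of 3 reads lay between 0.0951 and 0.259 over the libraries (counting error only), a floor that bears on the lowest genes of the list such as Cyp2b9.

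Cyp2b9 (chr7:26173411-26210661), a P450 of female liver, had values of 0, 0.452 and 11.7 (lowest, median and highest) in the highest Cyp2d9 libraries and of 1.51, 12.4 and 193 in the lowest. 11 of the 16 highest libraries lay below all of the lowest, and the other 5 lay inside their range. The difference was -2.98 ± 0.54 (adjusted p = 0.000406, limma) and -2.70 without library 24, which held the value of 193. Cyp2a4, a testosterone 15-alpha-hydroxylase, had values of 0.651, 2.48 and 9.59 against 5.01, 17.3 and 77.2. Here 14 of the 16 highest libraries were below the whole range of the lowest, and the difference was -2.89 ± 0.36 (adjusted p = 2.02e-06, limma). Cyp17a1, the 17-alpha-hydroxylase of steroid synthesis, differed by -1.98 ± 0.29 (adjusted p = 1.98e-05), with medians of 16.2 and 67.9.

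The smaller differences included Cd36, the fatty acid transporter of the cell surface, which was among the most uniform of the list. Its values were 20.1, 28.8 and 41.4 in the highest libraries and 36.7, 53.7 and 89.4 in the lowest, 14 of the highest lay below all of the lowest, and the difference was -0.94 ± 0.097 (adjusted p = 1.73e-07, limma). Cux2, a repressor of male-biased genes in female liver, was lower, at -1.13 (adjusted p = 0.0172), at medians of 0.915 and 3.21. Cyp2a22 differed by -1.63, the anion transporter Slc22a26 by -1.58, the lipoprotein receptor Vldlr by -1.05, the peroxisomal transporter Abcd2 by -0.81 and the oxysterol hydroxylase Cyp39a1 by -0.65. Nipal1, Atp6v0d2, Slco1a4 and Rtn4 were also lower, at -0.75, -0.68, -0.57 and -0.25. Among the members that did not pass, Cyp2b10 had a difference of -0.94 ± 0.44 (adjusted p = 0.168) and Acot3 of -0.60 ± 0.35 (adjusted p = 0.272). Of the 31-base stretches of Cyp2a4, 58.1% are shared, mostly with Cyp2a5, which in contrast was higher in the highest Cyp2d9 libraries by 0.55 (adjusted p = 0.0186, limma). Cyp2b9 shares 26.1%, mostly with Cyp2b13.

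**Figure D2:**
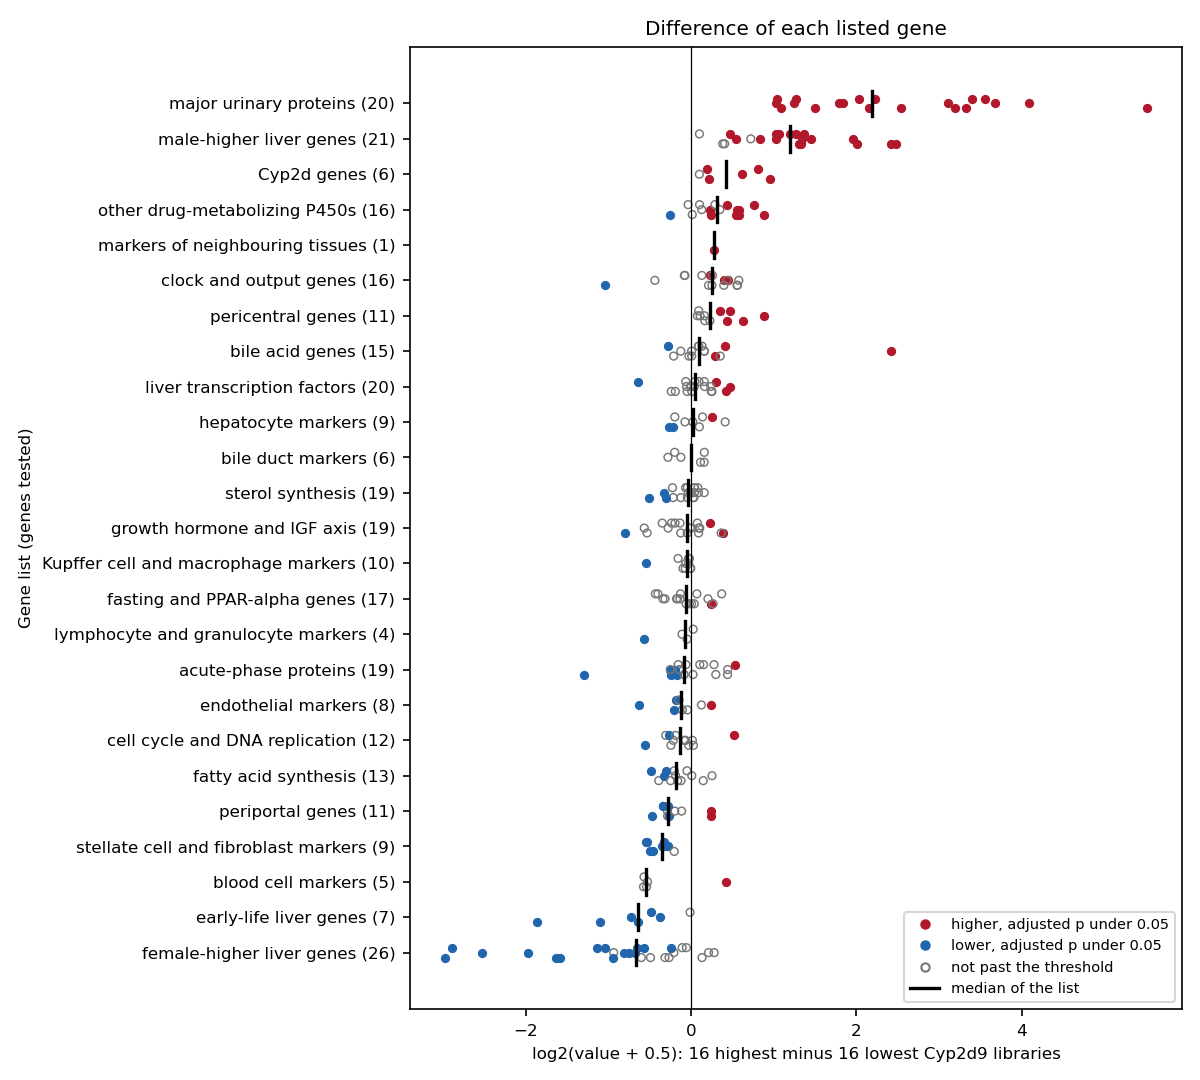
Difference in log2(value + 0.5) between the 16 highest and the 16 lowest Cyp2d9 libraries (horizontal axis) for every tested gene of 25 lists (vertical axis, with the number of genes tested), filled where the adjusted p was under 0.05, with a bar at the median of each list. The Mup and male-higher lists lie to the right with medians of 2.19 and 1.19, the female-higher and early-life lists lie to the left with medians of -0.67 and -0.64, and most other medians lie within 0.35 of 0.

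Library 24, with the lowest Cyp2d9, had the highest value of all 50 libraries for Cyp2b9 and Cyp2a4 and the lowest for Slco1a1, Ugt2b1 and Elovl3. 4 female-higher genes that were below the minimum for a test stood out in it: Cyp2b13 was at 16.8 in library 24 and at most 0.54 in the other 49, Sult2a1 was at 12.4 and at most 0.356, Sult2a2 at 21.7 and at most 0.944, and A1bg at 5.51 and at most 1.71. Without library 24 the test called 1078 genes, 1073 of them among the 1358, and the male-higher list had 17 higher members and the female-higher list 15 lower members. Among the genes named here, Mki67, Hlf, Col3a1, Marco, Cdh5, Cebpb, Igf1, Mup9, Cyp3a13 and Cyp2d37-ps were not called without it (adjusted p between 0.0503 and 0.0713, limma).

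The Mup genes, which encode pheromone-binding proteins that the male liver secretes into urine, lie together on chromosome 4. All 20 that were tested (22 listed) were higher in the highest Cyp2d9 libraries, against 5.91% of all genes tested. The median difference of the Mup genes was 2.19 (log2), with a range from 1.03 (Mup10) to 5.51 (Mup15). Their summed value ran from 11153 to 27911 in the highest libraries and from 1962 to 10981 in the lowest, so the sums did not overlap. Mup20, the darcin gene, also stands on the male-higher list and differed by 1.27 ± 0.32 (adjusted p = 0.00837, limma). Mup20 was not called with animal number in the model, at 0.81 (adjusted p = 0.111), or with the share of the 10 highest genes, at 0.46 (adjusted p = 0.633).

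Mup1 (chr4:60498012-60501960) had a lowest, median and highest value of 43.9, 104 and 262 in the highest libraries and 1.51, 8.82 and 37.9 in the lowest. The sets did not overlap, and the difference was 3.33 ± 0.37 (adjusted p = 5.02e-07, limma). Mup7 had values of 2068, 4644 and 9630.2 against 22.99, 394 and 2224, with 14 of the highest libraries above all of the lowest and a difference of 4.08 ± 0.51 (adjusted p = 2.33e-06). Mup15 went from a median of 1.99 to one of 277, a difference of 5.51 ± 0.61 (adjusted p = 4.35e-07). Mup3, at the edge of the cluster, had values of 4243, 6659 and 8713 against 1340.5, 3774 and 5270.3 and a difference of 1.04 ± 0.17 (adjusted p = 9.6e-05).

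Mup12 and Mup9 split the libraries in another way. In the highest libraries 10 values of Mup12 lay between 21.1 and 79.1 and 6 between 1248 and 2450, with nothing between, and Mup9 likewise had 10 values from 31.7 to 193 and 6 from 1130 to 1492. Their differences were 3.20 ± 0.85 (adjusted p = 0.012) and 2.54 ± 0.84 (adjusted p = 0.0423), and both calls were lost within either range of library numbers (1 to 30 and 31 to 59) and with the share of the 10 highest genes in the model (adjusted p = 0.118 for Mup12 and 0.205 for Mup9, limma). The Mup9 call was also lost with edgeR (adjusted p = 0.196), with the range of library numbers in the model (0.0547) and without library 24 (0.0565). The Mup cluster lies on a chromosome that segregated in the cross, and the alleles that single mice carried there were not analysed here. Mup transcripts share between 24.3% (Mup6) and 100% (Mup15, Mup19 and Mup22) of their 31-base stretches with other genes, so the values of single Mup genes are uncertain.

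**Figure D3:**
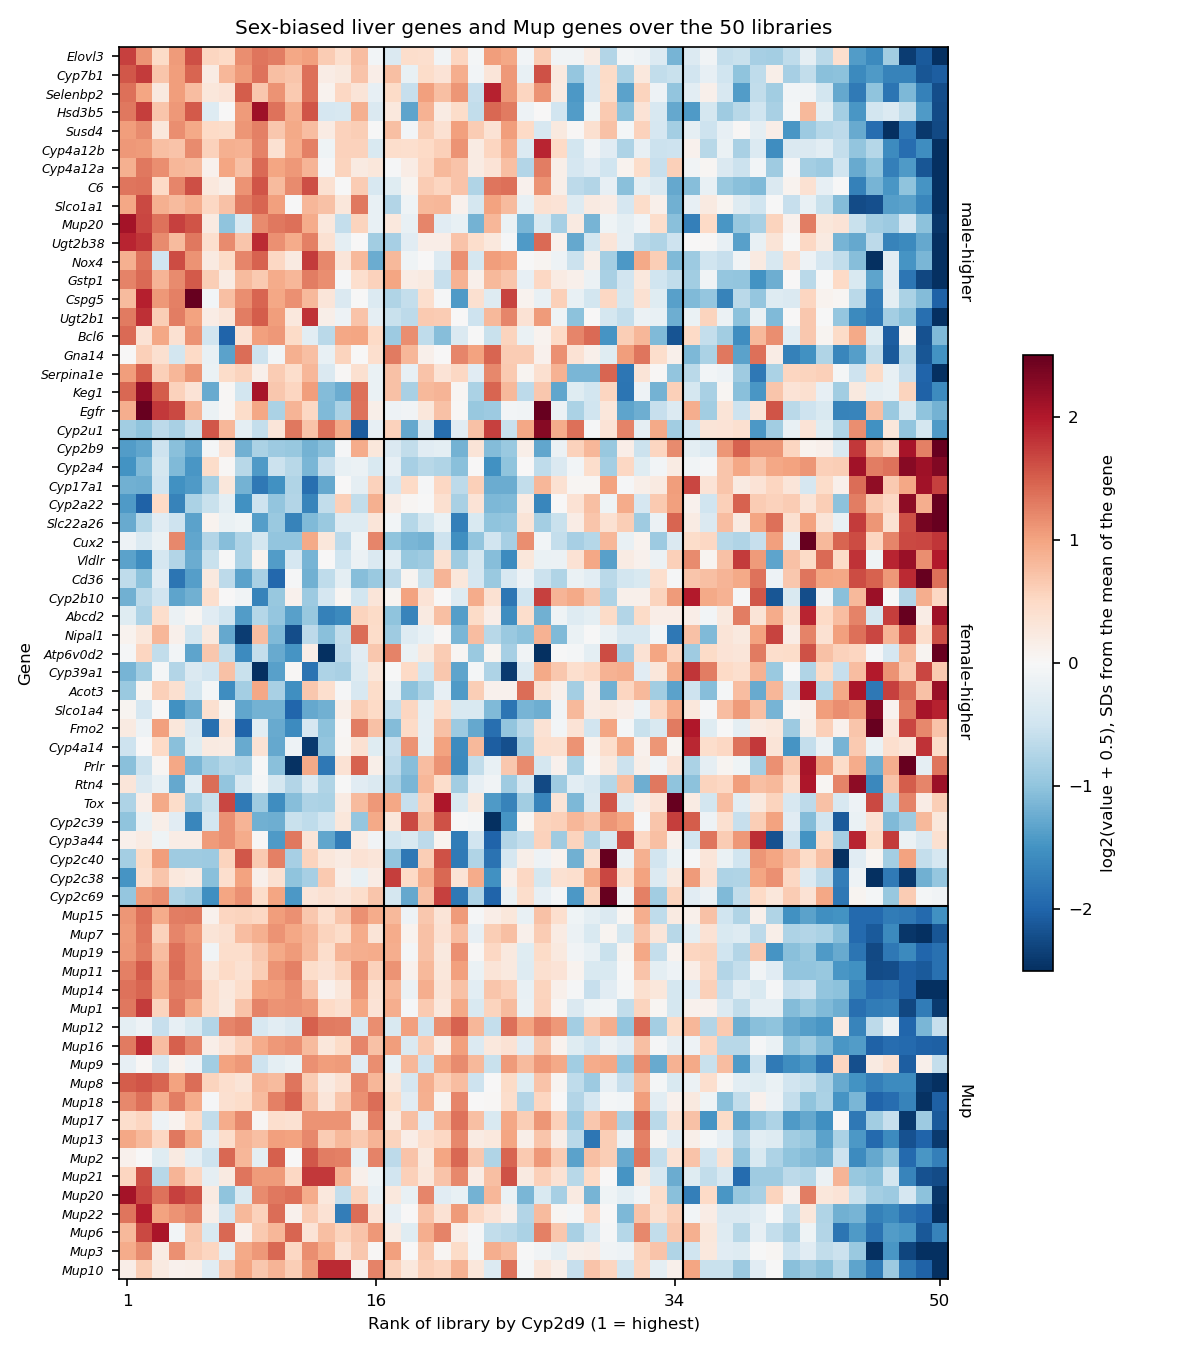
Each row is a tested gene of the male-higher, female-higher (1 gene left out) or Mup list and each column a library in order of Cyp2d9 rank, with color showing log2(value + 0.5) in SDs from the mean of the gene; vertical lines divide the 16 highest, 18 middle and 16 lowest libraries. Most male-higher and Mup rows run from red to blue and most female-higher rows from blue to red, with the deepest colors in the last few of the lowest libraries. Mup12, Mup9 and Mup17 are exceptions, with medians that are higher in the middle libraries than in the highest.

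Among the other Cyp2d genes, 5 of the 6 tested were higher, 0 were lower, and the median difference was 0.42. Of all genes tested, 5.91% were higher. Cyp2d40 had values of 24.7, 37.7 and 49.96 in the highest libraries and 11.3, 19.3 and 28.9 in the lowest, and differed by 0.95 ± 0.10 (adjusted p = 2.68e-07, limma). Cyp2d10, the nearest to Cyp2d9 in level, differed by only 0.22 ± 0.038 (adjusted p = 0.000192) and Cyp2d26 by 0.19 ± 0.05 (adjusted p = 0.00908). The pseudogenes Cyp2d41-ps and Cyp2d37-ps were higher by 0.80 and 0.62, and the call of Cyp2d37-ps was lost with edgeR and without library 24. These genes share sequence with Cyp2d9 (17.1% of the stretches of Cyp2d10 and 6.99% of Cyp2d40), so they may not be independent of the gene that ordered the libraries. Alignments that were not unique were counted in no gene, and the part of shared sequence in these differences was not tested.

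Of 19 tested genes of the growth hormone and IGF axis, 2 were higher and 1 was lower, where 11.9% of all genes tested were called. The median was -0.045. Ghr, the growth hormone receptor, had values of 201, 251 and 301 in the highest libraries and 133.1, 205 and 273 in the lowest, a difference of 0.39 ± 0.089 (adjusted p = 0.00372, limma) with 6 of the highest above all of the lowest. Igf1, its main secreted target, differed by 0.23 ± 0.073 (adjusted p = 0.0367), from a median of 285.5 to 336, and was not called under quantile normalization, after scaling to the same sum or without library 24. Neither Ghr nor Igf1 was called with animal number in the model or with the share of values held by the 10 highest genes. Igfbp3, a binding protein of IGF1 made mainly by non-parenchymal cells, was lower, at -0.80 ± 0.11 (adjusted p = 1.32e-05), with values of 9.17, 13.2 and 19.7 against 15.496, 22.2 and 36.8.

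The signal transducer itself did not pass the test: Stat5b differed by -0.045 ± 0.059 (adjusted p = 0.668) and Stat5a by -0.19 ± 0.088 (adjusted p = 0.153). Socs2 and Cish, feedback inhibitors that STAT5 induces, had differences of -0.53 ± 0.27 (adjusted p = 0.2) and -0.35 ± 0.22 (adjusted p = 0.315), with wide ranges in both sets. Igfals, the partner of IGF1 in serum, had a difference of 0.36 ± 0.13 (adjusted p = 0.0574).

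Among 20 liver transcription factors, 3 were higher and 1 was lower, where 11.9% of all genes tested were called. The median was 0.044. Esr1, the estrogen receptor, was lower, at -0.64 ± 0.1 (adjusted p = 5.04e-05, limma), with values of 6.82, 9.70 and 13.9 in the highest libraries and 10.3, 16.1 and 20.98 in the lowest and 9 of the highest below all of the lowest. Nr1i3, the xenobiotic receptor CAR, was higher by 0.47 (adjusted p = 0.0107), Cebpb by 0.42 (adjusted p = 0.0362) and the pioneer factor Foxa1 by 0.31 (adjusted p = 0.000804). Hnf4a, a factor on which many male-biased genes depend, had a difference of 0.25 ± 0.088 (adjusted p = 0.0546), and Onecut1 one of -0.047 ± 0.22 (adjusted p = 0.919).

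Most tested genes of the list that is high in the liver of young mice and falls with age were lower in the highest Cyp2d9 libraries. Of 12 listed, 9 were in the table and 7 were tested, of which 6 were lower and 0 higher, with a median of -0.64. Over all genes tested 5.97% were lower. Afp and Gpc3 stayed below the minimum for a test. With no minimum 6 of 9 were lower, with a median of -0.48. The noncoding RNA H19, an imprinted fetal transcript, had values of 0, 0.218 and 1.999 in the highest libraries and 0.259, 2.42 and 14.6 in the lowest, a difference of -1.87 ± 0.36 (adjusted p = 0.000638, limma). Lpl, the lipase of circulating triglyceride, had values of 20.2, 37.4 and 58.6 against 32.4, 78.8 and 141 and a difference of -1.11 ± 0.16 (adjusted p = 1.78e-05). The imprinted genes Mest, Plagl1 and Cdkn1c were lower, at -0.72, -0.64 and -0.38, and the desaturase Scd2 at -0.48. With animal number in the model 6 of the 7 were also lower, and with the share of the 10 highest genes in the model 2 were.

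In the list of cell cycle genes 12 were tested, 1 was higher and 2 were lower, where 11.9% of all genes tested were called. The proliferation marker Mki67 was lower, at -0.56 (adjusted p = 0.027) and Mcm6 at -0.27 (adjusted p = 0.0227), whereas the thymidine kinase Tk1 was higher by 0.52 (adjusted p = 0.0103). With animal number in the model 0 of the 12 were called.

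Of 16 tested P450 genes of drug metabolism outside the Cyp2d and sex lists, 9 were higher and 1 was lower, and the median was 0.32. Among all genes tested, 5.91% were higher and 5.97% lower. The count of higher members was 6 with animal number in the model and 4 with the share of the 10 highest genes. It was 3 in libraries 1 to 30 alone and 2 in libraries 31 to 59 alone. Cyp1a2 had values of 173, 219.3 and 281 in the highest libraries and 63.5, 131 and 205 in the lowest and differed by 0.88 ± 0.13 (adjusted p = 1.62e-05, limma), with 12 of the highest above all of the lowest. Cyp2c50, Cyp2c37 and Cyp2c54 were higher by 0.76, 0.58 and 0.57, and share 29.2% to 47.4% of their stretches with other genes. The 1 lower call, Cyp3a13 at -0.25 (adjusted p = 0.0442), was lost without library 24 (adjusted p = 0.0713), with either covariate, with 12 or 25 libraries at each end and with Cyp2d9 as a continuous measure.

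Genes that mark the pericentral hepatocytes, next to the central vein, and those of the periportal hepatocytes differed in opposite directions in part. Of 11 pericentral genes 5 were higher and 0 lower, with a median of 0.23, and of 11 periportal genes 2 were higher and 5 lower, with a median of -0.28. The shares over all genes tested were 5.91% higher and 5.97% lower. Glul, the glutamine synthetase of the innermost pericentral cells, had values of 422, 465 and 573 in the highest libraries and 207, 273.6 and 492 in the lowest, a difference of 0.62 ± 0.11 (adjusted p = 0.000292, limma). Slc1a2, its glutamate transporter, was higher by 0.48, Cyp2e1 by 0.43 and Lect2 by 0.35. The periportal enzymes Hal of histidine breakdown, Gls2 of glutamine breakdown, and Ass1 and Arg1 of the urea cycle were lower, at -0.47, -0.34, -0.28 and -0.26, and the lipid droplet protein Hsd17b13 at -0.34. Cyp2f2 and Pck1, also periportal, were higher by 0.25 and 0.24. In the libraries numbered 31 to 59 alone 1 pericentral and 0 periportal genes were called, and with the share of the 10 highest genes in the model 3 and 3.

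Bile acid genes were tested in 15 cases, of which 3 were higher and 1 lower. Beside Cyp7b1, the bile acid transporter Slco1b2 had values of 557, 690.2 and 847 in the highest libraries and 321, 531 and 721 in the lowest and differed by 0.41 ± 0.083 (adjusted p = 0.00131, limma), and Cyp27a1 differed by 0.29 (adjusted p = 0.025). Slco1b2, like Slco1a1, lies on chromosome 6, which segregated in the cross. Akr1d1, the steroid 5-beta-reductase, was lower, at -0.28 (adjusted p = 0.00816). Of 19 sterol synthesis genes 3 were lower, among them Sqle at -0.51 and Dhcr7 at -0.30, and 0 higher. Of 13 fatty acid synthesis genes 3 were lower (Elovl5 at -0.49, Acaca at -0.33, Fads1 at -0.30) and 0 higher. Over all genes tested, 5.91% were higher and 5.97% lower, the shares beside which the lists of this paragraph stand.

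Calls in the acute-phase, clock and fasting lists stand beside a share of 11.9% called among all genes tested. Among 19 acute-phase genes Orm1 was higher by 0.53 and 5 were lower: Lcn2 at -1.29 ± 0.24 (adjusted p = 0.000453, limma), and Hp, Itih3, Fgg and Fgb at -0.25 to -0.17. Lcn2 had values of 3.77, 5.46 and 30.7 in the highest libraries and 6.54, 18.8 and 36.4 in the lowest, so that 12 of the highest lay below all of the lowest and 1 stood near the top of their range. Of 16 clock genes the output factors Tef, Nr1d2 and Hlf were higher by 0.45, 0.39 and 0.23, and Npas2 was lower, at -1.04. The core clock gene Arntl had a difference of -0.44 ± 0.16 (adjusted p = 0.0739). Among 17 fasting and PPAR-alpha targets 1 passed, Pck1, and it was not called with animal number in the model.

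Markers of the cell types in liver were examined beside these lists, since fewer cells of a type and less RNA per cell cannot be told apart in a whole-tissue library. The hepatocyte markers were high in every library, led by Alb with values of 57039, 66602 and 77450.0 in the highest libraries and 63468, 85333 and 91913 in the lowest. Of 9 hepatocyte markers Serpina1c was higher by 0.25, Alb was lower, at -0.27 ± 0.054 (adjusted p = 0.000995, limma), Ahsg was lower, at -0.22, and 6 did not pass. Of all genes tested, 11.9% were called. Alb has the top value of each library, so quantile normalization gives it 1 value and no difference.

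Stellate cell and fibroblast markers were lower in 8 of 9 cases, with a median of -0.35 and a summed value of 118.1 to 220.8 in the highest libraries against 172.1 to 276.5 in the lowest. Of all genes tested, 5.97% were lower. Rgs5 was lower, at -0.53, Dcn at -0.50, Colec11 at -0.46 and Col3a1 at -0.54. The count fell to 5 of 9 without library 24, to 3 with animal number in the model and to 0 with the share of the 10 highest genes in the model. Of 8 endothelial markers 3 were lower (Lyve1 at -0.63, Cdh5 at -0.20, Pecam1 at -0.18) and Clec4g was higher by 0.24, and their sum was 193.8 to 251.8 in the highest libraries and 209.5 to 294.4 in the lowest. With animal number in the model 1 endothelial marker was lower and 0 were higher, and with the share of the 10 highest genes 0 were called.

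Kupffer cell markers passed in 1 of 10 cases (Marco, -0.54), where 11.9% of all genes tested passed. Their sums were 371.8 to 558.5 and 424.0 to 558.0. Lymphocyte and granulocyte markers passed in 1 of 4 (S100a9, -0.56), bile duct markers in 0 of 6 by limma (1 lower under either other scaling), and blood cell markers in 1 of 5, where the heme enzyme Alas2 was higher by 0.43. The globin genes were not called, and their differences ran from -0.57 (Hba-a2) to -0.53 (Hbb-bt). Of the markers of pancreas, muscle and fat 1 of 9 was tested, the elastase Cela1, which was higher by 0.28. Sums of the list of bile duct genes were 233.9 to 308.0 and 253.4 to 350.8. The part of other cell types in the differences above was not tested.

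Over all 50 libraries, the genes that followed Cyp2d9 most closely were Mup7 (Spearman rho 0.872), Mup1 (0.872), Elovl3 (0.868), Mup11 (0.866) and Mup14 (0.858). The genes that ran most against it were Cyp2a4 (-0.795), Cd36 (-0.793), Mmd2 (-0.777), Map4k4 (-0.774) and Rnf145 (-0.764). These values are descriptions, since the points share the order that Cyp2d9 gave them and the same library scaling.

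The 18 libraries between the sets did not enter the comparison, and they allowed the same genes to be looked at in other samples. Over them Cyp2d9 only ran from 1450 to 1786. With log2 Cyp2d9 as the measure, 0 of 11430 genes were called by limma and 0 by edgeR, and 328 (2.87%) had an unadjusted p under 0.05. The slope was positive for 80.62% of the 676 genes called higher and for 19.5% of the 682 called lower, against 48.42% of all genes tested. It was positive for 20 of 21 male-higher genes, 3 of 26 female-higher genes and 20 of 20 Mup genes. Slco1a1 had a slope of 1.96 log2 units per log2 unit of Cyp2d9, Cyp7b1 of 5.08, Mup1 of 5.32, Cyp2a4 of -5.71 and Cyp2b9 of -9.15. Genes are not independent of each other, so these shares are given with no test.

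**Figure D4:**
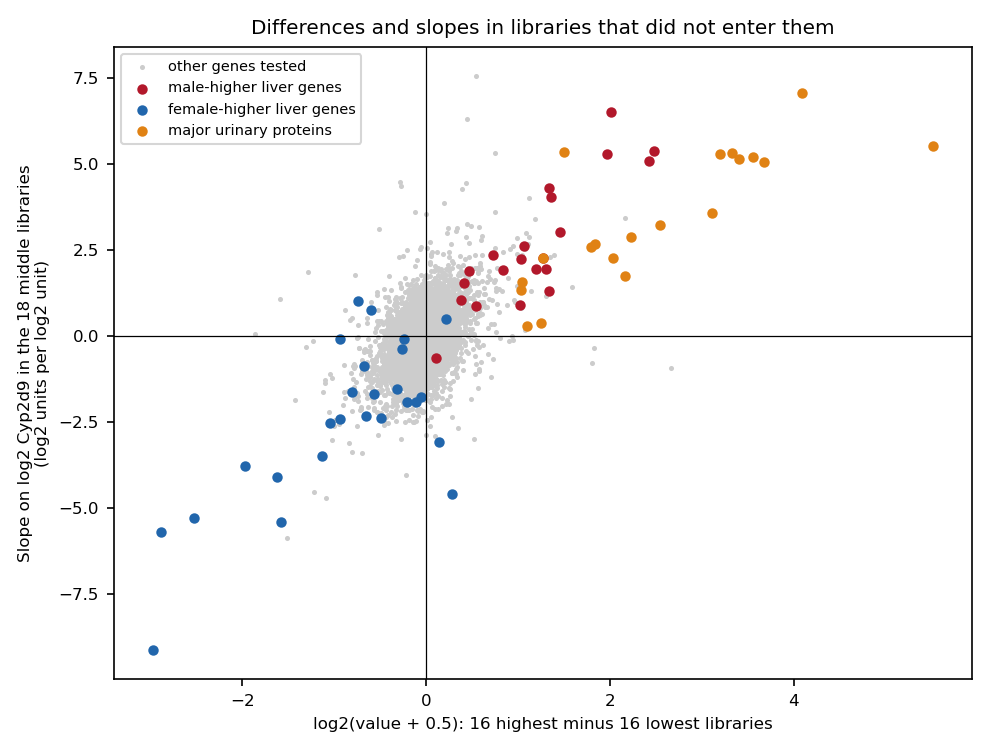
Slope on log2 Cyp2d9 in the 18 middle libraries (vertical axis, log2 units per log2 unit) against the log2 difference between the 16 highest and 16 lowest libraries (horizontal axis), each point 1 gene, with 3 lists colored and Mup20 drawn as a Mup gene. The Mup and male-higher genes lie mostly in the upper right, the female-higher genes mostly in the lower left, and Cyp2b9 has the lowest slope drawn, at -9.15.

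The libraries also differed in measures other than single genes, and 7 such measures were compared, with Benjamini-Hochberg adjustment over them. The animal number was lower in the highest Cyp2d9 libraries (mean 179 ± 38.1 SD, n = 16, against 222 ± 56.5, n = 16, permutation p = 0.0181, adjusted 0.0317). Alignments that were not unique, and so were counted in no gene, made up 13.3% ± 0.996 (SD) of the column total in the highest libraries and 9.76% ± 1.06 in the lowest (permutation p = 2e-05, the smallest that 100000 permutations can give, adjusted 7e-05). All rows that name no gene took 23.1% and 19.7% (permutation p = 2e-05). A fixed set of 10 genes, those with the highest mean over all 50 libraries, held a share of the gene values. It was 20.3% ± 0.770 in the highest libraries and 21.7% ± 0.920 in the lowest (permutation p = 0.00016, adjusted 0.000373). Alb is among these genes and was itself lower in the highest libraries, at -0.27 (log2), and its part in this share was not tested. Reads counted in genes (9430126 to 17269003 over both sets, permutation p = 0.289), the column sum over genes (permutation p = 0.179) and the set of library numbers (8 and 8 against 10 and 6, Fisher's exact p = 0.722) had no detectable difference.

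**Figure D5:**
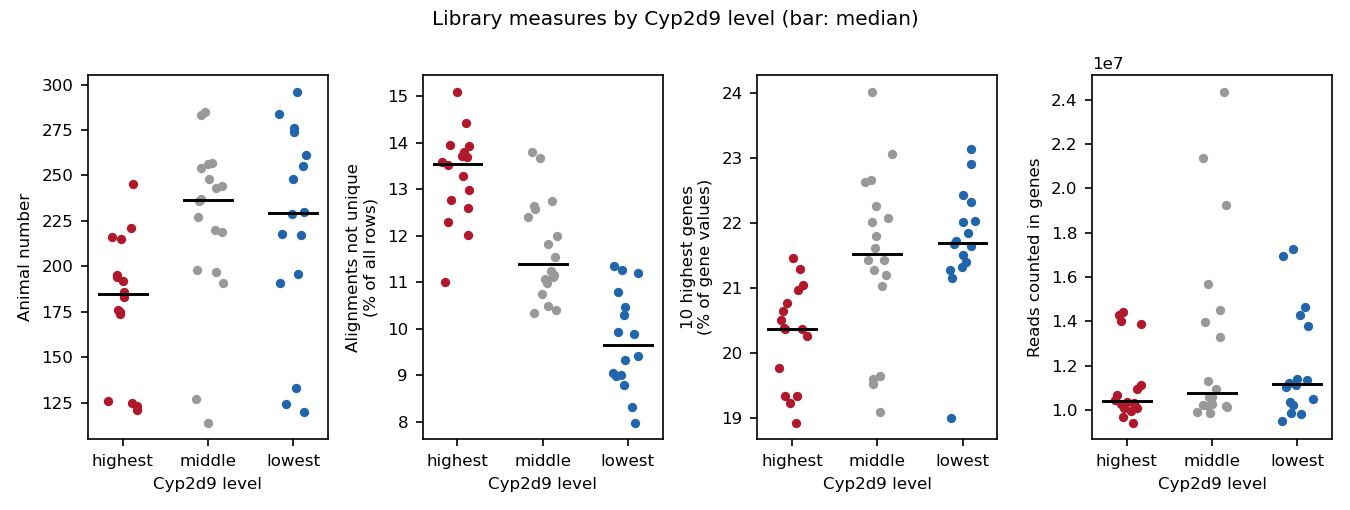
4 measures of each library (vertical axes: animal number, alignments that were not unique in % of the column total, share of the 10 highest genes in % of gene values, reads counted in genes) by Cyp2d9 set, each point 1 library and each bar the median. The share of alignments that were not unique has a median of 13.5% in the highest set and 9.65% in the lowest, and the animal number medians are 184.5 and 229.5.

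Animal number and the share of the 10 highest genes were each put into the model. With animal number as a covariate 658 genes were called, and with the share of the 10 highest genes 190. The male-higher list then had 15 and 10 higher members, the female-higher list 16 and 8 lower members, and the Mup list 19 and 14 higher members, with 0 members called in the other direction. With the share of the 10 highest genes 0 members were called in the clock, sterol synthesis, fatty acid synthesis, cell cycle and endothelial lists. The part of alignments that were not unique in the differences was not tested. Over all 50 libraries Cyp2d9 and animal number had a Pearson r of -0.212 (permutation p = 0.138) and a Spearman rho of -0.371 (permutation p = 0.0085). Without the 2 libraries farthest from the median animal number r was -0.247, within libraries 1 to 30 it was -0.0987 (n = 28) and within libraries 31 to 59 it was -0.329 (n = 22). Spearman rho in the same order was -0.440 (permutation p = 0.00208), -0.250 (permutation p = 0.1986) and -0.4715 (permutation p = 0.02755). Cyp2d9, animal number and the measures of library composition cannot be told apart further in these data.

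The differences were also taken within the 2 ranges of library numbers. In libraries 1 to 30 (8 highest against 10 lowest) the difference of Slco1a1 was 1.28 ± 0.29, of Ugt2b1 0.80 ± 0.21, of Cyp7b1 2.26 ± 0.34 and of Cyp2b9 -3.25 ± 0.67. In libraries 31 to 59 (8 against 6) these were 1.24 ± 0.19, 0.80 ± 0.16, 2.54 ± 0.33 and -2.55 ± 0.86 (log2 ± SE). In 0 of 11430 genes did the difference itself differ between the ranges (limma interaction, adjusted p under 0.05), and 379 (3.32%) had an unadjusted p under 0.05. Fewer genes passed within a range, 228 and 182, and the cause of the lower count beyond the smaller number of libraries was not tested. 2 animal numbers stood on a pair of libraries each, with Cyp2d9 at 1722 and 1347 for one and 742 and 1637 for the other, so that libraries labelled with the same animal lay in different sets. Without these 4 libraries 1401 genes were called.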

How the data were processed

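The table holds the authors' deposited expression signal, read counts per gene scaled to a common library size. Per the labels and methods, stranded poly(A) paired-end reads were trimmed and mapped by the authors with HISAT2 (build GRCm38.p5), HTSeq 0.11.1 gave counts per gene, and edgeR normalized what a filter on low genes had left. Of 12185 rows, 5 name no gene (17.0% to 25.31% of a column, median 21.63%) and were left out, but they were part of the authors' library size. Dividing by the value of 1 read gave whole reads for 100% of values (tolerance 0.01). Gene positions came from GENCODE M21.

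The 16 highest and 16 lowest libraries by Cyp2d9 were compared with limma 3.58.1 (R 4.3.3) on log2(value + 0.5) for genes with a mean of at least 1, 2-sided, Benjamini-Hochberg adjusted, threshold 0.05. edgeR 4.0.16 (quasi-likelihood) on the whole reads called 1396 genes. The members and gene lists were chosen with earlier results of these data known. The design had assumed plain CPM, and the same tests were kept. Libraries are separate samples of 1 group, ordered by a measured gene and not assigned, so p-values describe association. Genes named were Slco1a1, Ugt2b1 and Cyp2b9, up to 4 called members per list and direction, the 8 largest called differences each way, and the 5 genes most and least correlated with Cyp2d9; others are named with their lists or as chosen after seeing values. Tests were checked on simulated data. Shared sequence was measured on annotated transcripts. Values of some single genes are not reported here, and these genes stay in the counts of their lists.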

Additional observations from a re-analysis of the deposited data

How the results depend on the processing

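No paired analysis was possible because all libraries belong to 1 group and no replicate numbers are shared between sets. Against 1358 genes called, 49.78% of them higher in the highest Cyp2d9 libraries, libraries 1 to 30 alone gave 228 (54.82% higher), libraries 31 to 59 alone 182 (51.1%), animal number in the model 658 (48.48%) and the values held by the 10 highest genes in the model 190 (49.47%), while a mean of at least 5 left 640 higher and 447 lower genes. Against 17 male-higher members called, libraries 1 to 30 gave 11 and the 10-gene share 10. Against 15 female-higher members called lower, libraries 1 to 30 gave 8, libraries 31 to 59 gave 5 and the 10-gene share 8. Against 20 Mup genes, libraries 31 to 59 gave 12. A range alone holds fewer libraries; for the covariates the cause was not tested. The edgeR test and the scaling to the same sum were chosen after seeing the data, and called 1396 and 1326 genes, 1296 and 1144 of them among the 1358. Of the 1358, 2 changed sign under quantile normalization (Alb and Azgp1, neither called there), 1 with the 10-gene share (Cadps2) and 0 under each other alternative. Of 90 named genes, 9 lost their call without library 24 and 9 under quantile normalization. With 9430126 to 24355042 reads counted per library, low genes such as H19 and Cyp2b9 rest on few reads.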

Other observations

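Genes outside the lists were also among the largest differences between the 16 highest and the 16 lowest Cyp2d9 libraries, and those below were chosen after their values were seen. Serpina12, which encodes the adipokine vaspin, had a lowest, median and highest value of 2.96, 6.69 and 12.96 in the highest libraries and 0.285, 0.710 and 5.27 in the lowest, a log2 difference of 2.17 ± 0.27 (adjusted p = 2.02e-06, limma). The carboxylesterase Ces2c was higher by 1.39, the anion transporter Slc22a7 by 1.34 and the carbonic anhydrase Car3 by 1.19. On the other side the secreted trefoil peptide Tff3 had values of 3.46, 5.04 and 14.7 against 4.07, 28.96 and 83.5 and was lower, at -1.59 ± 0.35 (adjusted p = 0.00259), and the leptin receptor Lepr was lower, at -1.51 ± 0.29 (adjusted p = 0.000789), at medians of 10.9 and 34.9. The mitochondrial aldehyde dehydrogenase Aldh1b1 was lower, at -1.30, asparagine synthetase (Asns) at -1.10, the apolipoprotein Apoa4 at -1.10 and the metallothioneins Mt1 and Mt2 at -0.74 and -0.78. The matrix genes Postn and Eln were lower, at -0.82 and -0.75. Sult2a8, a sulfotransferase whose sets did not overlap, had values of 428, 514 and 655 against 165, 297 and 420.1 and a difference of 0.79 ± 0.11 (adjusted p = 8.26e-06).

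C1s2 and C1rb, complement proteases encoded on chromosome 6, were either near 0 or well expressed. C1s2 lay above 3 in 14 of the 16 highest libraries, 11 of the 18 middle libraries and 7 of the 16 lowest, and the counts were the same for C1rb. No library of the highest set had a C1s2 value between 0 and 5.75, and none of the lowest set had one between 0.328 and 4.67. In 20 Mb stretches of the segregating chromosomes, the share of genes called was highest on chromosome 4 between 60 and 80 Mb, where the Mup cluster lies (25 of 49, 51%), and on chromosome 6 between 140 and 160 Mb (10 of 39, 25.6%), against 11.9% of all genes tested. The alleles that single mice carried there were not analysed here.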
